A study of Mus musculus with 96 samples.

Results

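Somatosensory-like neurons of the mouse geniculate ganglion were compared across genes in 2 sets: 6 neurons with Hmx1 transcripts, called Hmx1-positive here, and 30 neurons with abundant Fxyd2 transcripts, called Fxyd2-high. The 36 neurons came from 96 sequenced single neurons, and the other 60 neurons belonged to neither group. Each was wild type and untreated, from C57Bl/6J mice of both sexes aged 8 to 12 weeks, with 12 ganglia of 6 mice pooled in a dissociation, so that a neuron cannot be traced to its animal. The neurons were captured on 2 microfluidic chips, which were loaded with separate suspensions on separate days. They are called chip 1 and chip 3 here, after the suffix 1 or 3 in the sample labels. Chip 1 gave 5 Hmx1-positive and 15 Fxyd2-high neurons, and chip 3 gave 1 Hmx1-positive and 15 Fxyd2-high neurons. Because neurons of a suspension share their source, the chip was the replicate, and the chip 3 value of the Hmx1-positive group rested on 1 neuron.

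The facial nerve's geniculate ganglion contains taste neurons of the tongue and palate and somatosensory neurons that supply the skin of the outer ear. Somatosensory neurons are usually sorted by the stimulus they detect and the myelin of their axon, and by receptors for neurotrophins and glial-derived ligands, ion channels, calcium-binding proteins and transcription factors that mark each sort. Hmx1 encodes a homeobox transcription factor needed for the development of the eye and outer ear. Fxyd2 encodes the gamma subunit that modulates the sodium pump.

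The groups were defined by 4 measured values, in FPKM (fragments per kilobase of transcript, scaled to the mapped reads of the neuron). A neuron was Hmx1-positive with Hmx1 at 2 or above, Fxyd2 below 300 and P2rx2, a receptor subunit for extracellular ATP that is abundant in taste neurons, below 20. It was Fxyd2-high with Fxyd2 at 300 or above and the potassium channel subunit Kcns3 at 60 or above. The levels of these 4 genes are therefore a description of the choice and were not tested. In the order sites 67, 24, 69, 63 and 30 of chip 1 and then site 73 of chip 3, which is kept below, Hmx1 (mm9 chr5:35731766-35735521, plus strand) was at 13.5, 8.07, 4.36, 2.31, 5.24 and 10.8. It was listed at 0 in 27 of 30 Fxyd2-high neurons and reached 0.695 in the highest. Fxyd2 (mm9 chr9:45214160-45218361, plus strand) lay between 20.1 and 42.2 in Hmx1-positive neurons and between 354 and 11348 in Fxyd2-high neurons, with a median of 8352. The Fxyd2-high neuron at 354 was site 65 of chip 3, and the next was at 2545. Kcns3 was at 78.1, 94.4, 50.0, 0.149, 53 and 90.9 in Hmx1-positive neurons, and so was nearly missing at site 63 of chip 1. P2rx2 lay between 0.686 and 2.96 in Hmx1-positive neurons. In Fxyd2-high neurons P2rx2 was at 0.697 to 2.21 on chip 1 and at 1.97 to 18.4 on chip 3.

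**Figure D1:**
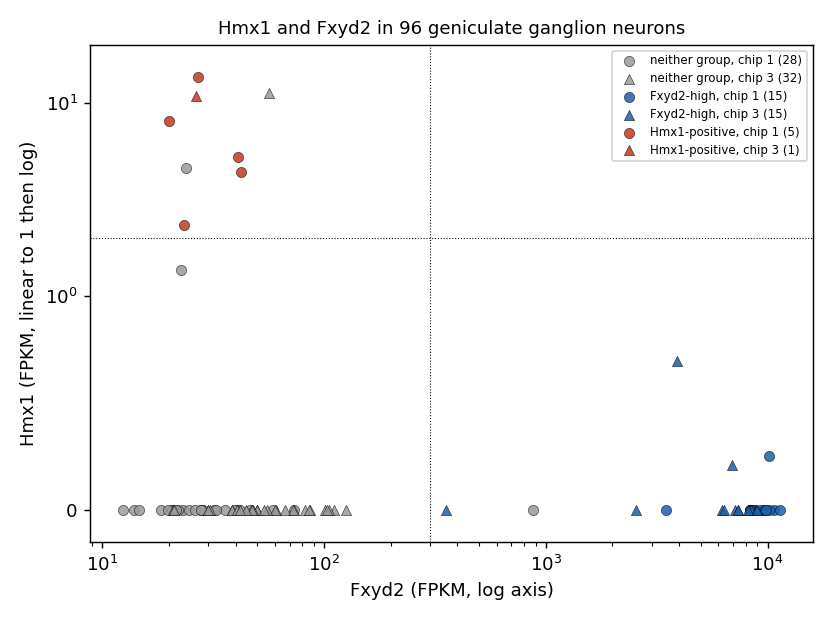
Hmx1 against Fxyd2 in each of the 96 neurons (FPKM; circles chip 1, triangles chip 3; dotted lines mark the limits of 2 and 300). The 6 Hmx1-positive neurons (red) and 30 Fxyd2-high neurons (blue) lie far apart, and 2 grey neurons beside the red points were left out for their P2rx2.

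Close to the limits, site 63 of chip 1 was the lowest neuron inside the Hmx1 limit at 2.31. Site 77 of chip 1 was the nearest below it, at 1.36, and had P2rx2 at 1012. The P2rx2 limit left out site 7 of chip 1, with Hmx1 at 4.59 and P2rx2 at 184, and site 36 of chip 3, with Hmx1 at 11.2 and P2rx2 at 25.5. Site 64 of chip 1 had Fxyd2 at 880 and Kcns3 at 29.6 and was in neither group.

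Markers of the 2 kinds of ganglion neuron were read in both groups to check the name somatosensory. Prrxl1, a homeobox gene of somatosensory neurons, was between 4.79 and 34.1 in Hmx1-positive neurons and between 1.38 and 21.2 in Fxyd2-high neurons, against a median of 0 in the 60 others. Eya1, a cofactor kept by taste neurons, reached 0.203 in Hmx1-positive neurons, and its median was 0.171 in Fxyd2-high neurons and 29.2 in the others. Summed over 13 measured transcription factor genes of taste neurons, the median FPKM was 10.8 in Hmx1-positive, 15.3 in Fxyd2-high and 250 in the other neurons, although site 63 of chip 1 had 164, of which Thrsp, a regulator of lipid synthesis, was 154. Y-linked transcripts summed to at least 5 FPKM in 4 Hmx1-positive and 22 Fxyd2-high neurons and were under 1 in 2 and 6, so both groups held neurons with and without them.

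Total read counts on 1 chosen transcript per gene ranged from 1544160 to 2340147 in Hmx1-positive and from 654586 to 2232980 in Fxyd2-high neurons. More genes were detected in Hmx1-positive neurons, with 10796 to 11819 and a median of 11452 genes above 0 against 10047 to 11014 and a median of 10517. After each neuron was thinned to the 654586 reads of the shallowest, the medians were 10829 and 10102, and on chip 3 they were 10839 and 10028. Of 18 measured satellite glia and Schwann cell genes, 5 had a median of at least 1 in each group, and the FPKM summed over the 18 was 319 to 601 in Hmx1-positive and 301 to 1183 in Fxyd2-high neurons, with Prx, Erbb3 and Foxd3 listed at 0 in every neuron of both. Pmp22, which neurons also transcribe, had the highest level of the glial genes at 257 to 534 in Hmx1-positive neurons. The 3 measured blood genes summed to 7.82 to 73.9 in Hmx1-positive and 1.49 to 33.3 in Fxyd2-high neurons. Of the immune, fibroblast and endothelial lists, 0, 0 and 1 gene had a median of at least 1 in Hmx1-positive neurons. No glial gene of 13 tested was called by edgeR, 3 had an unadjusted p under 0.05, and DESeq2 called Apoe and Sparc, both lower in Hmx1-positive neurons. Of 2 tested endothelial genes edgeR called none, both had an unadjusted p under 0.05, and DESeq2 called Esam, which had 74 reads in Hmx1-positive neurons and an edgeR log2 fold change of 4.11 ± 1.00 (adjusted p = 0.103). The part of these cells in the differences was not tested.

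To rank genes by their difference, counts were summed over the neurons of each group on each chip, and edgeR's quasi-likelihood test was run on the resulting 4 sums, with adjusted p-values taken over every gene tested. Of 12660 genes outside the rule, 177 (1.40%) were called higher and 133 (1.05%) lower in Hmx1-positive neurons at an adjusted p under 0.05 and at least 2-fold. With the chip as a block, 353 and 322 genes were called, among them all of these. At an unadjusted p under 0.05 there were 2185. All 310 called genes moved the same way on both chips, which a call on 4 sums nearly requires, so this shared sign is no separate evidence. Since the neurons were sorted on measured values, genes that vary with the sorting genes had to differ, so the test ranks genes and is no evidence that the 2 kinds exist. The test was therefore read beside the values of single neurons.

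The neurons themselves separated for a smaller set. In 61 genes (0.482%) every Hmx1-positive neuron was above every Fxyd2-high neuron, with the lowest at FPKM 1 or more, and 42 of them were called. In 56 genes (0.442%) the reverse held, and 41 were called.

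Among genes higher in Hmx1-positive neurons, the gap was widest for Serpinb1a and Pcp4l1. Serpinb1a (mm9 chr13:32933961-32943054, minus strand), an inhibitor of granulocyte proteases, had FPKM of 121, 91.8, 266, 168, 650 and 364 in the Hmx1-positive neurons and at most 5.44 in Fxyd2-high neurons, where the median was 0.477. Its log2 fold change was 8.64 ± 0.27 (SE; edgeR adjusted p = 0.000118). Pcp4l1 (mm9 chr1:173103395-173126399, minus strand), which encodes a small relative of the calmodulin-binding peptide PEP-19, was at 867, 1259, 823, 691, 858 and 844, against a median of 5.45 and a highest value of 43.7 (log2 fold change 6.48 ± 0.40, adjusted p = 0.0019). All 6 neurons lay within 2-fold of each other for Pcp4l1, while Serpinb1a spread more widely without reaching the Fxyd2-high range.

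Next in width among the higher genes came Fam19a1, Accn3, Lmo1 and Faim2. Fam19a1, now Tafa1, encodes a secreted chemokine-like protein and was at 38.7, 39.6, 31.9, 6.17, 35.6 and 12.8, whereas Fxyd2-high neurons had a median of 0 and reached 0.522 (log2 fold change 9.16 ± 0.73, adjusted p = 0.0033). Accn3 is the older symbol of Asic3, an acid-sensing sodium channel of sensory neurons. It stood at 108, 246, 152, 201, 101 and 78.9 against at most 8.56, with a log2 fold change of 5.75 ± 1.02 (adjusted p = 0.0443) that was 5.67 without site 63 of chip 1 (adjusted p = 0.0506). The LIM-only transcription cofactor Lmo1 was between 63.5 and 177 and at most 8.23 in Fxyd2-high neurons, and Faim2, an inhibitor of Fas-triggered death, was between 28.3 and 61.9 and at most 4.4. The 60 neurons of neither group had medians of 104 for Pcp4l1, 76.3 for Lmo1, 34 for Faim2, 22.7 for Accn3, 16.8 for Serpinb1a and 0 for Fam19a1. Serpinb1a reached 2239 among them, above every Hmx1-positive neuron.

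**Figure D2:**
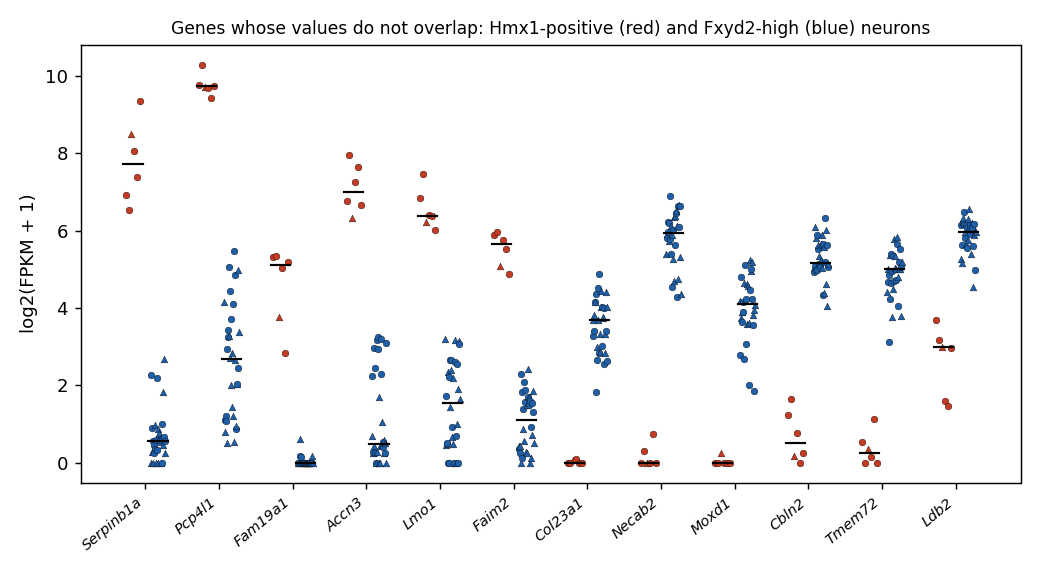
FPKM on the log2(FPKM + 1) scale of 12 genes in the 6 Hmx1-positive (red) and 30 Fxyd2-high (blue) neurons (circles chip 1, triangles chip 3, bars medians). The first 6 genes lie higher in every Hmx1-positive neuron and the last 6 in every Fxyd2-high neuron.

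In the other direction, Col23a1, Necab2, Moxd1, Cbln2 and Tmem72 separated the neurons most. Necab2, a calcium-binding protein of neurons (mm9 chr8:121970619-121996535, plus strand), was listed at 0 in 4 Hmx1-positive neurons and reached 0.664, whereas the Fxyd2-high range was 18.4 to 118 with a median of 60.0 (log2 fold change -8.82 ± 0.48, adjusted p = 0.00128). Col23a1, a transmembrane collagen, had 2 reads in all Hmx1-positive neurons and 4841 in the Fxyd2-high neurons, a 553-fold ratio with a 95% counting interval of 153 to 4570. Moxd1, related to dopamine beta-hydroxylase, had 2 and 3643 reads, a ratio of 416 with an interval of 115 to 3439. The synapse-organizing secreted protein Cbln2 was at most 2.13 in Hmx1-positive neurons and between 15.7 and 79.9 in Fxyd2-high neurons, and the membrane protein gene Tmem72 was at most 1.18 against 7.75 to 56.2. Their log2 fold changes were -5.99 ± 0.50 (adjusted p = 0.00415) and -6.59 ± 0.30 (adjusted p = 0.000964).

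Promoters of these genes were read from RefSeq's GRCm38.p6 sequences (250 bases before to 50 after the start), which were found for 125 of the 177 higher and 91 of the 133 lower genes. CAAGTG, the core recognized by HMX family factors, was searched on both strands and was present in 15.2% of the higher, 18.68% of the lower and 10.78% of the promoters of 8954 genes tested, a description of these windows only. The TATA box letters TATAAA on the gene's strand were in 6.4%, 3.3% and 3.96%. Shown are the 4 promoters that held one of these motifs, in capitals, among the widest-gap genes matched by their symbol in the files. Cbln2 was left out of this listing, so its absence does not tell whether its promoter held a motif. CACTTG is CAAGTG on the other strand.
Pcp4l1, chr1:171196219-171196518, minus strand: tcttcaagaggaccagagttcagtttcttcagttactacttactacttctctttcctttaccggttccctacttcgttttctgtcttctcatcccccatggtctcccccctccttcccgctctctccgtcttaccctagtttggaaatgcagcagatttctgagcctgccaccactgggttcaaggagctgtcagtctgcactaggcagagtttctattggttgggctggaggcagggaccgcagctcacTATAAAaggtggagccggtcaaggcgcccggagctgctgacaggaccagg
Col23a1, chr11:51289670-51289969, plus strand: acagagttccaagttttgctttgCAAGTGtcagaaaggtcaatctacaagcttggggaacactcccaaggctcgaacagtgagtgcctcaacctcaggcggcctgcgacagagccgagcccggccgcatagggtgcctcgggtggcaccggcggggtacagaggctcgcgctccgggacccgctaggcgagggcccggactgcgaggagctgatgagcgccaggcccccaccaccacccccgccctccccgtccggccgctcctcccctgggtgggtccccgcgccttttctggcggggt
Necab2, chr8:119446469-119446768, plus strand: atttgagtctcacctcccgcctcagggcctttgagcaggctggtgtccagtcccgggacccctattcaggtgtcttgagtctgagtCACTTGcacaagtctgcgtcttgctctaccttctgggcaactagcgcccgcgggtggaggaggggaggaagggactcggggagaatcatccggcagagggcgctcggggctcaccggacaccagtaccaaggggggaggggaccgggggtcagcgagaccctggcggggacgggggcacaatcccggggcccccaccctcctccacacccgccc
Tmem72, chr6:116716709-116717008, minus strand: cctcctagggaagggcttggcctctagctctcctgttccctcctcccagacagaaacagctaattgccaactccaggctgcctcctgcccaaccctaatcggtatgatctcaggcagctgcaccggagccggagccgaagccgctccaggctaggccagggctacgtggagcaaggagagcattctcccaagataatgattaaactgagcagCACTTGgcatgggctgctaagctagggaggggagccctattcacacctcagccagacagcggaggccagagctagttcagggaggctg
The Hmx1 promoter held neither motif in this window, and the Pcp4l1 match lies at the annotated start itself.

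Among called genes chosen by size alone, several were nearly silent in one group. Tnfsf15, a cytokine of the tumour necrosis factor family, had 426 reads in Hmx1-positive neurons and 1 in Fxyd2-high neurons, a 1864-fold ratio with an interval of 333 to 73783, but it was at 0 at site 63 of chip 1. The phosphodiesterase Pde1a, which breaks down cyclic nucleotides in response to calcium, had 604 and 3 reads, a ratio of 881 with an interval of 299.96 to 4283. Ggt5, which cleaves leukotriene C4, and Srgn, a granule proteoglycan, had no read in any Fxyd2-high neuron and were at least 382-fold and 165-fold higher. Both had more reads relative to depth on chip 3, Ggt5 at 9.06 CPM (reads scaled to the total of the sum) on chip 1 and 77.8 on chip 3 and Srgn at 7.75 and 20.1, and Srgn was at 0 in 3 of the 6 Hmx1-positive neurons. Syngr2, Slc35d3, Stxbp6, P2rx5 and Aldh1a3 completed this set with Cacng3, Fam19a1 and Serpinb1a, and each of the first 5 had 1 or 2 reads over all Fxyd2-high neurons. Of the 6 Hmx1-positive neurons, 2 were at 0 for each of Stxbp6, P2rx5 and Aldh1a3. For each of Slc35d3, Pde1a, Ggt5 and Cacng3, 1 was at 0. At the other end, Scin, an actin-severing protein, Maob, the amine-degrading monoamine oxidase B, Colq, which anchors acetylcholinesterase, Fam184b and Afp had no read in any Hmx1-positive neuron. The Fxyd2-high neurons were at least 102-fold, 99.1-fold, 97.5-fold, 91.6-fold and 45.5-fold higher for them. Cdkl4, Rnf182 and Ppp1r1a, an inhibitor of protein phosphatase 1, also fell, with log2 fold changes between -8.77 and -8.10.

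Transcription factors of somatosensory neurons differed in a few members. Of 23 tested outside the rule, 1 was called higher and 3 lower, beside 1.40% higher and 1.05% lower over all genes, and the median log2 fold change was -0.28 against -0.03 over all genes. Maf, which shapes rapidly adapting mechanoreceptors, was at 7.99, 5.79, 5.21, 8.39, 13.7 and 6.81 in Hmx1-positive neurons and at most 3.51 in Fxyd2-high neurons (log2 fold change 2.55 ± 0.39, adjusted p = 0.0278). The LIM-domain-binding cofactor Ldb2 (mm9 chr5:44863372-45190946, minus strand) was at 12.0, 8.10, 2.02, 1.76, 6.89 and 6.94 against 22.4 to 94.1, with no overlap (-3.22 ± 0.20, adjusted p = 0.00175). Pou4f2, a POU factor of sensory and retinal neurons, was between 0.235 and 3.83 against a median of 11.7, and 27 of 30 Fxyd2-high neurons were above its highest Hmx1-positive value (-2.81 ± 0.36, adjusted p = 0.0181). Mef2c fell by 1.32 (adjusted p = 0.0273). The general sensory factors Isl1 and Pou4f1 did not pass the test, with medians of 64.2 and 13.9 in Hmx1-positive and 46.9 and 19.3 in Fxyd2-high neurons. Of 8 tested factors of taste neurons, 0 were called higher and 1 lower, beside 1.40% higher and 1.05% lower over all genes. The lower one, Tlx2, had 1 read in Hmx1-positive and 712 in Fxyd2-high neurons, a 163-fold ratio with a counting interval of 29.1 to 6437. Its Fxyd2-high median was 0.779 with a highest value of 31.8.

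Of 13 tested receptors for neurotrophins, GDNF family ligands and related factors, 2 were called higher and 1 lower, beside 1.40% higher and 1.05% lower over all genes, with a median log2 fold change of 0.66. Gfra1, which binds GDNF, was at 25.7, 33.7, 13.0, 9.20, 41.9 and 29 against a median of 4.42 and a highest value of 12.0, and 5 of 6 Hmx1-positive neurons were above all Fxyd2-high neurons (2.46 ± 0.23, adjusted p = 0.00609). Its signalling partner Ret was at 7.82, 9.06, 32.7, 23.3, 17.2 and 7.46 against at most 7.81, so that 5 of 6 were above all Fxyd2-high neurons. Its log2 fold change, 2.46 ± 0.49, missed the threshold (adjusted p = 0.0609) and passed it with the chip block (adjusted p = 0.000293). Il6st, the shared subunit of interleukin-6 family receptors, rose by 1.61 ± 0.28 (adjusted p = 0.0422). The sorting receptor Sort1, which also binds pro-neurotrophins, was at most 0.194 in Hmx1-positive neurons and between 0.880 and 12.1 in Fxyd2-high neurons (-6.89 ± 0.69, adjusted p = 0.00803). Ntrk2, the receptor of BDNF, was lower in every Hmx1-positive neuron, at 1.52 to 30 against 35.7 to 92.6, although the fitted log2 difference, -1.40 ± 0.35, missed the threshold (adjusted p = 0.11) and passed it with the chip block (adjusted p = 0.000161). Ntrk3, the receptor of neurotrophin 3, was at 6.34, 31.9, 1.56, 104, 5.6 and 9.05 against 0 to 16.5. Its log2 fold change of 2.04 ± 0.53 (adjusted p = 0.127, and 0.00763 with the chip block) was 1.06 without site 63 of chip 1 (adjusted p = 0.156).

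Calcium-binding proteins were called mostly one way, 5 higher and 1 lower of 24 tested, beside 1.40% higher and 1.05% lower over all genes, with a median of 0.88. S100b (mm9 chr10:75716581-75724064, plus strand), a calcium sensor of large myelinated sensory neurons and glia, was at 722, 704, 595, 968, 753 and 533 against 116 to 319 (1.65 ± 0.21, adjusted p = 0.0178). Every Hmx1-positive neuron was above every Fxyd2-high neuron. S100a16 was at 164, 428, 195, 0.411, 360 and 257 and at most 8.54 in Fxyd2-high neurons (6.95 ± 0.51, adjusted p = 0.00306), so that site 63 of chip 1 alone lay in the Fxyd2-high range. For S100a6 this site was at 1.82 beside 184 to 929 in the other 5, and Fxyd2-high neurons varied from 0 to 446, so that the groups overlapped (2.01 ± 0.19, adjusted p = 0.00694). S100a13 was between 90.2 and 258 against at most 83, and Ncald, neurocalcin delta, between 26.2 and 45 against at most 16.9, with log2 fold changes of 2.99 ± 0.29 and 3.89 ± 0.45 (adjusted p = 0.00694 and 0.0126). The median of Ncald in the 60 other neurons was 174. Calm2 and S100a10 were abundant in both groups and not called, with log2 fold changes of 0.15 and 0.23. Necab2, described above, was the member that fell.

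**Figure D3:**
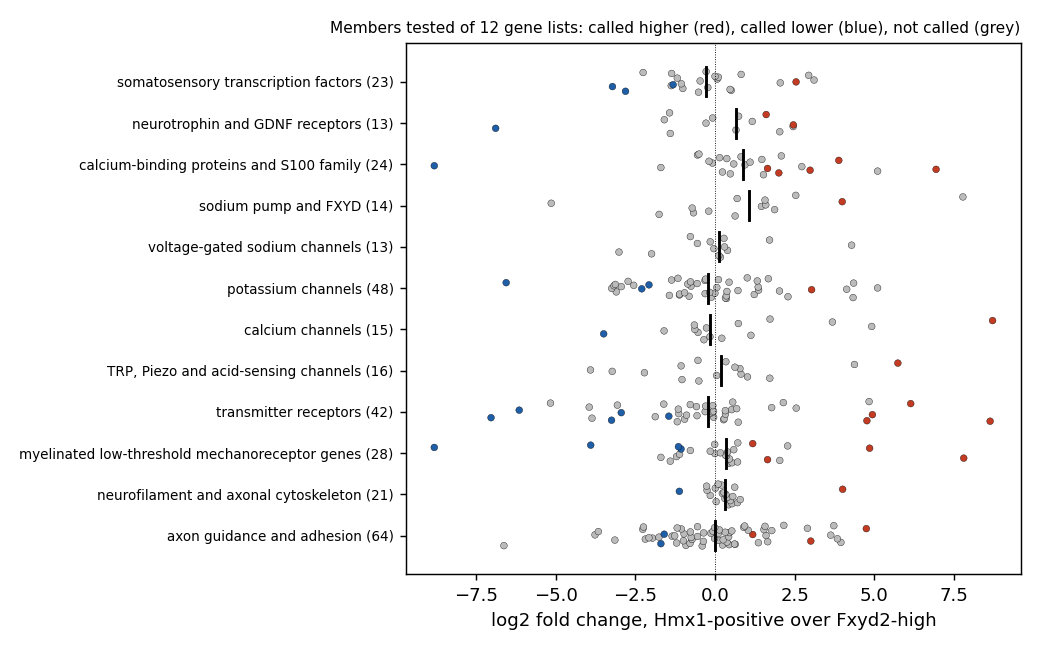
Log2 fold changes (Hmx1-positive over Fxyd2-high, edgeR) of the members tested of 12 gene lists, with the number tested behind each name; red and blue points were called higher and lower, black bars are medians, and genes without a read in one group are drawn at their bound. Most members of each list are grey, with medians between -0.28 and 1.08.

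Of 14 tested sodium pump and FXYD genes outside the rule, 1 was called higher and 0 lower, by edgeR, beside 1.40% higher and 1.05% lower over all genes. Fxyd7, a brain regulator of the pump, was at 856, 1312, 1016, 1823, 891 and 542, against a median of 20.2 in Fxyd2-high neurons, of which the highest reached 535 (4.00 ± 0.45, adjusted p = 0.0118). No Fxyd2-high neuron reached the lowest Hmx1-positive one. The median of Fxyd7 in the 60 other neurons was 1190. Fxyd6 had 1 read in Hmx1-positive neurons and a log2 fold change of -5.14 ± 1.5 (adjusted p = 0.158). The pump subunit Atp1b1 differed by -0.20 ± 0.13 (adjusted p = 0.517).

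Ion channel genes were read by family. No voltage-gated sodium channel gene was called by edgeR among 13 tested, although 7 had an unadjusted p under 0.05 and DESeq2 called 1, Scn11a. Scn9a was at 18.1 to 80.5 against 37.9 to 93.4, and Scn1a at 18.1 to 64.3 against 11.3 to 50.3. Scn11a, a channel of nociceptors, was between 2.07 and 4.41 in 4 Hmx1-positive neurons, near 0 in the others and at most 1.03 in Fxyd2-high neurons (4.29 ± 0.89, adjusted p = 0.0698, and 0.00681 with the chip block). Of 48 potassium channel genes, 1 was called higher and 3 lower, beside 1.40% higher and 1.05% lower over all genes. Kcnk1 and Kcnh7 fell by 2.07 ± 0.19 and 2.30 ± 0.27 (adjusted p = 0.00628 and 0.0126), each with no overlap, and Kcnk13 had 2 reads against 943. Kcnh5 was called higher (3.04 ± 0.51, adjusted p = 0.0403). Among 15 calcium channel genes, 1 was called higher and 1 lower, beside 1.40% higher and 1.05% lower over all genes. The T-type channel Cacna1h was at most 1.93 in Hmx1-positive neurons and between 2.67 and 14.7 in Fxyd2-high neurons (-3.50 ± 0.34, adjusted p = 0.00694). Cacng3, an auxiliary subunit of glutamate receptors and calcium channels, was at 7.68, 13.5, 27.4, 0, 21 and 13.9 against at most 0.638 (8.72 ± 0.69, adjusted p = 0.0032). In the TRP, Piezo and acid-sensing list Accn3 was the single call of 16, beside 1.40% higher and 1.05% lower over all genes. Fam38b, the older symbol of the touch channel Piezo2, was at 68.9, 51.1, 44.4, 17, 55.1 and 58.5 against 20.6 to 45.3 (0.63 ± 0.14, adjusted p = 0.0852). None of the 4 HCN genes was called by edgeR or DESeq2, and 0 had an unadjusted p under 0.05.

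Transmitter receptors showed calls both ways, 4 higher and 5 lower of 42 tested, beside 1.40% higher and 1.05% lower over all genes, with a median of -0.22. Gabra5, a GABA receptor subunit, was at 58.8, 47.1, 55.7, 2.12, 125 and 51.7 against at most 7.55 (4.95 ± 0.26, adjusted p = 0.00114), whereas Gabrg1 fell by 2.95 ± 0.35 (adjusted p = 0.0128). The metabotropic glutamate receptor Grm8 rose by 6.15 ± 0.79 (adjusted p = 0.0176), and the AMPA receptor subunit Gria1 had 3 reads in Hmx1-positive neurons against 907. Of receptors for ATP and related nucleotides, the channel subunits P2rx5 and P2rx6 were called higher (8.65 ± 1.39 and 4.77 ± 0.70, adjusted p = 0.0324 and 0.0247) at low levels, of at most 9.01 and 13.0 in any Hmx1-positive neuron. P2ry1, a G protein-coupled receptor for ADP, was at 13.6, 7.23, 10.1, 2.47, 17.1 and 6.46 against 47.8 to 148 (-3.25 ± 0.26, adjusted p = 0.0033). The serotonin receptor subunit Htr3b was at most 0.905 against a median of 21.9 (-7.04 ± 0.60, adjusted p = 0.00433). Of 7 tested genes of transmitter supply edgeR called none, 3 had an unadjusted p under 0.05 and DESeq2 called 1, Th. Slc17a6, the vesicular glutamate transporter of most sensory neurons, was at 44.4 to 83.3 against 62.4 to 124.

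Lists of genes known from sensory neuron types were read next. Of 28 tested genes of myelinated low-threshold mechanoreceptors, 4 were called higher and 4 lower, beside 1.40% higher and 1.05% lower over all genes. Those that rose were S100b, Spp1, Faim2 and the axonal adhesion molecule Cntn1 (1.19 ± 0.13, adjusted p = 0.0121). Spp1, the secreted protein osteopontin, was at 57, 55.7, 1.58, 525, 272 and 363, and 15 of 30 Fxyd2-high neurons were at 0 (7.82 ± 0.47, adjusted p = 0.00175). Those that fell were Necab2, Cadps2, Rprm and Ldhb. Cadps2, which primes dense-core vesicles, was at 0.380, 0.377, 19.2, 1.14, 0.619 and 8.16 against 66.4 to 142 (-3.90 ± 0.30, adjusted p = 0.0032). The neurofilaments Nefl, Nefm and Nefh were not called, at 0.71 ± 0.17, 0.54 ± 0.15 and 0.43 ± 0.22. Of 8 genes of C-fibre low-threshold mechanoreceptors, 1 was called higher and 2 lower, beside 1.40% higher and 1.05% lower over all genes. Fam19a4, now Tafa4, was the higher one, at 34.6, 46.6, 29.4, 14.8, 82.7 and 50.9 against a median of 0 and a highest value of 19 (4.78 ± 0.27, adjusted p = 0.00128). P2ry1 and Pou4f2 were the lower ones. Of 8 peptidergic nociceptor genes edgeR called none, 2 had an unadjusted p under 0.05 and DESeq2 called 1, Adcyap1. Cartpt, Tac1 and Adcyap1 had log2 fold changes of -1.45, -2.25 and -3.08. Of these, Cartpt and Adcyap1 passed with the chip block (adjusted p = 0.0288 and 0.00981). Of 9 non-peptidergic nociceptor and itch genes, 0 were called higher and 2 lower, beside 1.40% higher and 1.05% lower over all genes. Plxnc1 and Lgals1 fell by 1.70 ± 0.23 and 1.30 ± 0.14 (adjusted p = 0.0193 and 0.00956).

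In the remaining lists, each count of calls stands beside 1.40% higher and 1.05% lower over all genes. Gap43, a growth-associated protein of axons, was at 145, 206, 239, 3.35, 136 and 101 against at most 25.4 (4.01 ± 0.42, adjusted p = 0.00906). The median of Gap43 in the 60 other neurons was 329. Ank3 was called lower, and these were the 2 calls among 21 cytoskeletal genes. Scg2, a granin of secretory granules, was the single call of 15 neuropeptide genes, at 157, 198, 14.3, 18.3, 19.8 and 52.3 against 0.313 to 33 (3.25 ± 0.27, adjusted p = 0.00432). Of 64 guidance and adhesion genes, Sema5a, Cdh12 and Cntn1 were called higher and Plxnc1 and Cntn2 lower, beside 1.40% higher and 1.05% lower over all genes. Syt1, a calcium sensor of vesicle release, fell by 2.38 ± 0.34 (adjusted p = 0.0236), at 5.31 to 20.4 against 25.4 to 113, the single call of 11 general neuronal genes. Of 21 genes induced by dissociation and stress Jun was called higher, at 15.7 to 52.7 against 1.32 to 23.2 (1.97 ± 0.29, adjusted p = 0.0261), and the list's median was 0.72. Summed over 25 measured members, this list was at 589 to 1670 FPKM in Hmx1-positive and 345 to 990 in Fxyd2-high neurons. Its part in the other differences was not tested.

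The 6 Hmx1-positive neurons were not alike, and site 63 of chip 1 differed most from the others. It had the highest S100b, Ntrk3, Nefl, Fxyd7 and Spp1 of the 6 and the lowest S100a16, S100a6, Gabra5, Gap43, Fam19a4 and Gfra1. Nefl was at 1983 there, against 634 to 967 in the other 5 neurons. Of the 177 genes called higher, 76 were above every Fxyd2-high neuron at this site, against 125 to 155 at the other 5. In 34 of the 177 it was the only Hmx1-positive neuron within the Fxyd2-high range, while each other neuron was so in 1 to 6 genes. Without it, 164 of the 177 higher and 115 of the 133 lower genes were still called. Site 69 of chip 1 was the single Hmx1-positive neuron with Prdm12, a factor of the nociceptor lineage, at 15.0, and had the highest Etv1, at 17.1. Prdm12, Etv1 and Thrsp were singled out after their values were seen.

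**Figure D4:**
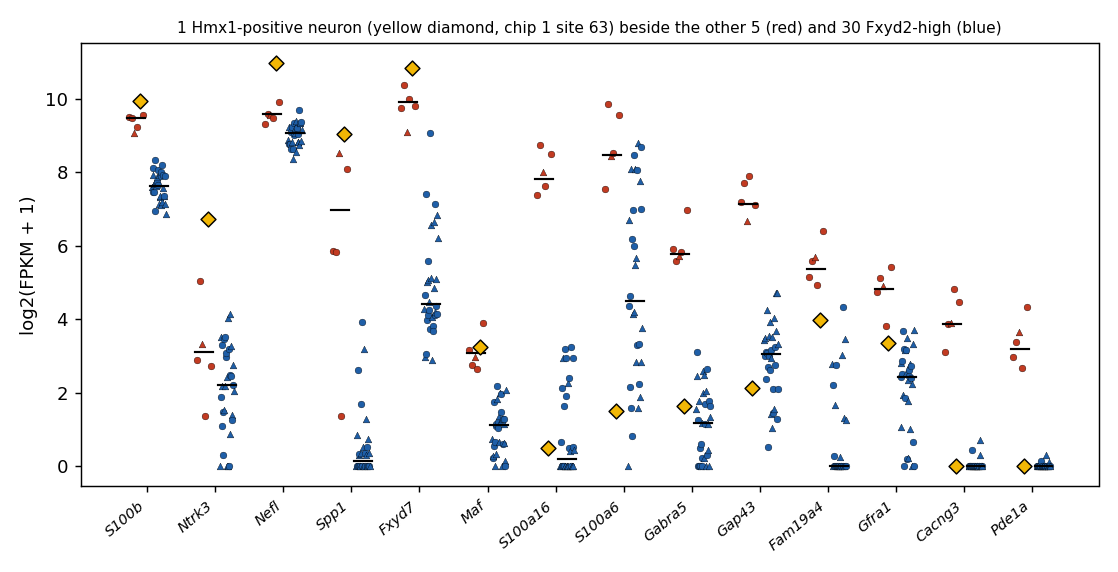
FPKM on the log2(FPKM + 1) scale of 14 genes, with site 63 of chip 1 as a yellow diamond, the other 5 Hmx1-positive neurons in red and the 30 Fxyd2-high neurons in blue (circles chip 1, triangles chip 3, bars medians over each group). The diamond lies at the top of the Hmx1-positive group for S100b, Ntrk3, Nefl, Spp1 and Fxyd7. It lies within the Fxyd2-high range for S100a16, S100a6, Gabra5, Gap43, Fam19a4, Gfra1, Cacng3 and Pde1a.

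The 2 neurons left out for P2rx2 did not enter the fit, and their values were read over the called genes. Site 7 of chip 1 and site 36 of chip 3 were above the Fxyd2-high median in 152 and 150 of the 177 higher genes, and above every Fxyd2-high neuron in 72 and 95. They were below the Fxyd2-high median in 117 and 111 of the 133 lower genes and below every Fxyd2-high neuron in 45 and 44, against 70 to 88 in the 6 members. These counts were not made over all genes or for the other neurons of neither group, so they do not set the 2 sites apart from those neurons. Of the higher genes, Pcp4l1 had a median of 104 in the 60 neurons of neither group and reached 281, whereas Fam19a1 had a median of 0. Serpinb1a was at 10.3 and 18.2 and Pcp4l1 at 200.2 and 173 in them, below all 6 members and above all Fxyd2-high neurons. S100a16 was at 0 in both.

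Finally, the contrast of chip 1 was read on chip 3. Of genes at 5 CPM or more in 1 group of chip 1, 353 were at least 4-fold higher in its Hmx1-positive sum, and 247 of these (70%) were at least 2-fold higher on chip 3, against 9.72% of all 10469 such genes. Of 262 genes at least 4-fold lower on chip 1, 212 (80.9%) were at least 2-fold lower on chip 3, against 18.3%. On chip 3 the sign was opposite for 60 and 25 of them. The chip 3 side was 1 Hmx1-positive neuron, chosen by the same 4 genes.

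**Figure D5:**
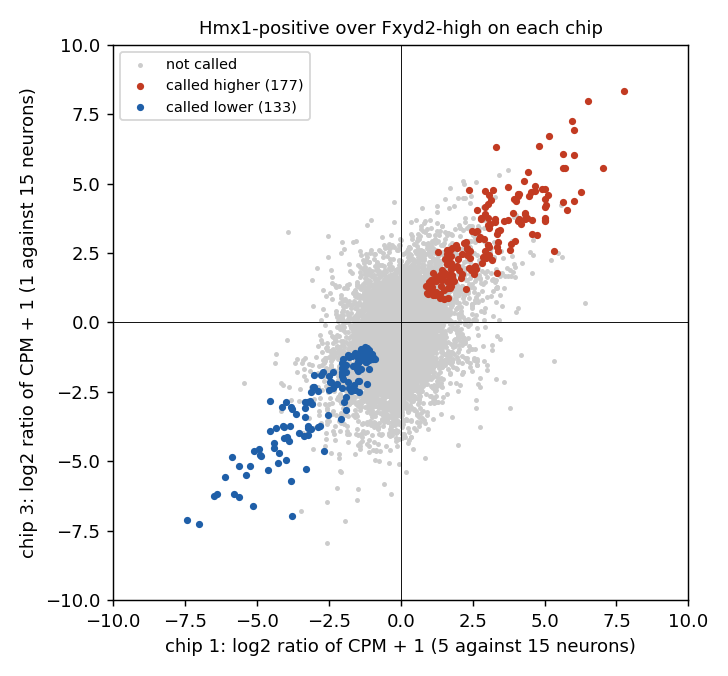
Log2 ratio of CPM + 1, Hmx1-positive over Fxyd2-high, on chip 1 (5 against 15 neurons) and chip 3 (1 against 15 neurons) for each gene tested; red and blue points are the 177 and 133 called genes. All called genes lie in the 2 quadrants where the chips share their sign, which a call on both chips' sums nearly requires.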

How the data were processed

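Single neurons had been captured on Fluidigm C1 chips, amplified with SMART-Seq v4 and sequenced without molecular identifiers, and neurons with early Snap25 amplification were picked for sequencing. The authors mapped reads with RUM, built on Bowtie and Blat, to mm9 and deposited read counts per transcript, with 1 chosen transcript per gene, and FPKM values per gene. The submitters' processing notes name bcl2fastq 2.17.1.14, Bowtie and mm9. Adapter trimming logs were not used.

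Counts of the chosen transcripts (17110 genes) were summed per group and chip and tested with edgeR 4.0.16 in R 4.3.3 (TMM, filterByExpr, quasi-likelihood F-test, two-sided, Benjamini-Hochberg over 12664 genes), with limma 3.58.1 and DESeq2 1.42.0 as alternatives. SE is the log2 fold change over the square root of F. A gene listed at several places took its highest FPKM. For groups without a read the bound uses 3 reads over the group, and intervals are exact at 95% and, like bounds, cover counting error only. The test was also run on simulated sums that had the same spread for every gene and every sum. Real sums of few neurons can vary more, so the simulation cannot show that the error rate holds here.

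Chip numbers mark separate days and pair the sums, and the groups' chip deviations correlated at 0.067 across genes. The members, lists and tests were chosen with earlier results of these data known. Named were, per direction, the 12 called genes with the largest fold change and the 6 with the widest gap between neurons, without gene models, and called and abundant members of the lists. Some genes that this rule picks are not reported here. The Hmx1, Fxyd2, P2rx2 and Kcns3 values chose the groups and were not tested. P-values measure the spread between the sums of 2 chips, which is not a difference of chips alone. The Hmx1-positive sums hold 5 neurons on chip 1 and 1 on chip 3, so differences between neurons enter their spread. Each Fxyd2-high sum holds 15 neurons. The test takes a shared spread for each gene over both groups, so it may understate how much a sum of 1 neuron varies.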

Additional observations from a re-analysis of the deposited data

Results flagged for a closer look

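Over 52 values given for the 6 Hmx1-positive neurons, 12 had a highest or lowest neuron whose gap to the next was a large share of the group's range by Dixon's 95% limit. For normal values chance flags about 1 in 20, but FPKM values are skewed and often 0, so that rate is no yardstick for the 12. Where all other neurons were at 0, as for Prdm12, Tlx2 and Moxd1, the gap was the whole range by construction. Several genes were picked after their values were seen. Site 63 of chip 1 stood apart for Ntrk3 (104 FPKM, the others at 1.56 to 31.9), Nefl (1983, the others at 634 to 967), Thrsp (154, the others at most 5.83), Necab2 (0.664, the others at most 0.237) and Htr3b (0.905, the others at most 0.313). Site 24 stood apart for Pcp4l1 (1259, the others at 691 to 867) and Prrxl1 (34.1, the others at 4.79 to 10.7). Site 69 did so for Prdm12 (15.0, the others at 0) and Etv1 (17.1, the others at most 2.71), and site 30 for Maf (13.7, the others at 5.21 to 8.39) and Tlx2 (0.306, the others at 0). Site 73 of chip 3 did so for Moxd1 (0.196, the others at 0). The values of Necab2, Htr3b, Tlx2 and Moxd1 are near the level of single reads.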

How the results depend on the processing

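The main comparison gave 177 higher and 133 lower genes. The counts were 110 and 66 at 5-fold, 472 and 335 with DESeq2, 353 and 322 with the chip as a replicate block, 327 and 235 with 6 sums, and 92 and 86 without the Kcns3 limit, which adds site 64 of chip 1. With limma 274 (pseudocount 1) and 342 (pseudocount 0.1) were higher, and without a filter 210 were lower. Leaving out 1 sum or 1 neuron gave 129 (without site 30 of chip 1) to 660 higher and 98 to 1101 lower genes. The upper values came without the chip 1 Hmx1-positive sum, and without the chip 3 neuron the counts were 435 and 390. In both the lone sum was assumed to vary like the other group. Genes without overlap were 108 and 96 on chip 1 alone and 28 and 25 without the P2rx2 limit, which adds 2 neurons. Of genes 8-fold apart on chip 1, 87.6% and 95.8% were 2-fold apart on chip 3. The difference in median genes detected was 935, and 536 at FPKM 1. Of 73 named calls, 28 stayed called in all 27 alternative fits that gave a value, and no named call changed sign. Rprm, Ank3, Accn3 and Cdh12 were lost most often. Among the named genes, the block changed no other call than those given beside the results and those of Thrsp, Isl2, Th, Htr1d, Slc17a7, Apoe, Sparc and Atf3. The P2rx2 limit of 30, added after seeing the data, gives chip 3 a second neuron: 157 and 101. The median over all genes was -0.03 with edgeR and 0.13 and 0.21 with limma. With limma the medians of the potassium channel, neuropeptide, taste factor, guidance and adhesion, and endothelial lists turned positive. With few neurons, a low gene such as Srgn rests on 3 of them.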
